A study of Mus musculus with 21 samples.

Results

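Ribosome-bound RNA (the translatome) was compared with total RNA (the transcriptome) of the same forebrain tissue in 6 of the 21 samples of the series: 3 Brain_Translatome libraries and 3 Brain_Transcriptome libraries, chosen by these labels and taken as pairs by their replicate number. All 6 came from E14.5 mouse embryos of the genotype Sox2Cre+/-;Gt(ROSA)26Sor-mCherry-Rpl10a+/-, so both groups carried the driver and the tag. Gt(ROSA)26Sor-mCherry-Rpl10a is an allele, made from a single targeted ES cell clone, that expresses the ribosomal protein Rpl10a fused to the red fluorescent protein mCherry after Cre recombination. Sox2Cre recombines in the epiblast, which gives rise to the whole embryo, so the tag is not restricted to a cell type. Each tissue sample pooled the forebrain, with part of the diencephalon, of 2 embryos, and the translatome and transcriptome libraries of the same number were made from the same tissue sample. Every difference below is therefore between RNA that came down with tagged ribosomes and RNA of the homogenate from which it was taken.

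A ribosome binds an mRNA near its 5′ end, finds the start codon and moves along the coding sequence until it meets a stop codon, and several ribosomes usually follow each other on the same molecule. Translating ribosome affinity purification (TRAP) uses a tagged protein of the large ribosomal subunit and an antibody to pull down ribosomes with the RNA they hold, after cycloheximide has stopped them in place. An mRNA that is rarely engaged by ribosomes, still in the nucleus or held in particles should be scarce in such a preparation relative to total RNA. In the embryonic forebrain, radial glia divide along the ventricle and their daughters become excitatory neurons dorsally and GABAergic neurons ventrally, a process in which translation of neurogenic and cytoskeletal mRNAs is known to be regulated.

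Between 30546034 and 45773518 reads were counted per translatome library and between 43190754 and 56754015 per transcriptome library, on 23827 rows, where a row is a RefSeq gene or transcript. Of these rows, 19446 held at least 1 read in the 6 libraries and were tested. Values are given as RPKM, which scales reads by transcript length and library size, in each library. Differences are given as the log2 ratio of translatome over transcriptome from a fit to the read counts with the tissue sample as a block. The standard error (SE) printed with a ratio was derived from the F statistic of that fit. The 10 forebrain markers checked, among them Emx1, Lhx2 and Dlx2, lay between 13.2 and 223 RPKM in every library, and the 6 kidney markers checked lay between 0 and 3.96 RPKM. Rpl10a (NM_011287), the protein that carries the tag, had 6.35, 6.43 and 6.38 RPKM in the transcriptome and 7.64, 6.07 and 5.89 RPKM in the translatome. Its groups overlapped and its log2 ratio was 0.06 (SE 0.10, adjusted p = 0.61). This row is uncertain, since such genes have many processed copies in the genome and the native gene was not separated from the tag. All 3 translatome libraries and transcriptome library 1 were sequenced in the same lane, and transcriptome libraries 2 and 3 in another, so that group and lane can be told apart only in the pair of tissue sample 1.

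At an adjusted p under 0.001, 4500 rows were enriched in the translatome (23.1% of those tested) and 4433 were depleted (22.8%). Among the 12862 rows with a mean RPKM over 1, 4360 were enriched (33.9%) and 3917 were depleted (30.5%). These shares are the background for the gene groups described below. The shares over all rows tested apply to counts of members tested, and the others to counts of members over 1 RPKM. The changes were moderate in size for most rows: 853 enriched and 1258 depleted rows exceeded 2-fold, whereas 10 enriched and 413 depleted rows exceeded 4-fold. The tail of strong depletion thus held more rows than the tail of strong enrichment. Over the mRNAs with a mean RPKM over 1 the median log2 ratio was 0.04, and the enriched rows beyond 4-fold were 2 of them, against 92 depleted. In the levels of these bulk samples, fewer cells of a type and less RNA per cell cannot be told apart. Both libraries of a pair were made from the same tissue sample, so each ratio compares RNA fractions of that tissue sample. Cell types need not contribute alike to both fractions, since the level of the tag in each cell type was not tested.

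The mRNAs gained on ribosomes mostly encoded short proteins, and those lost mostly encoded long ones. For the 12273 expressed mRNA rows with a matched GENCODE transcript (mean RPKM over 1), Spearman's rho between protein length and the log2 ratio was -0.64, and it was -0.64, -0.59 and -0.64 in the 3 tissue samples taken singly. These are correlations across genes that share the same 6 libraries, and genes are not independent replicates. In the quintile with the shortest proteins, with a median of 179 residues, the median log2 ratio was 0.71, and 79.7% of the mRNAs were enriched and 3.91% depleted. The median fell to 0.24, 0.00 and -0.20 in the next quintiles and to -0.41 in the quintile with the longest proteins (median 1155 residues), where 7.33% were enriched and 63.4% depleted. The median of the middle quintile lay between -0.040 and -0.0084 when any of the tissue samples was left out. In the 3 tissue samples the median of the shortest quintile was 0.79, 0.61 and 0.71 and that of the longest -0.45, -0.34 and -0.42. The order of the quintiles was the same in each sample. At the ends of the range, 739 of the 836 mRNAs for proteins of up to 150 residues were enriched (median log2 ratio 0.98), and 216 of the 301 mRNAs for proteins of 2000 residues or more were depleted (median -0.54).

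**Figure D1:**
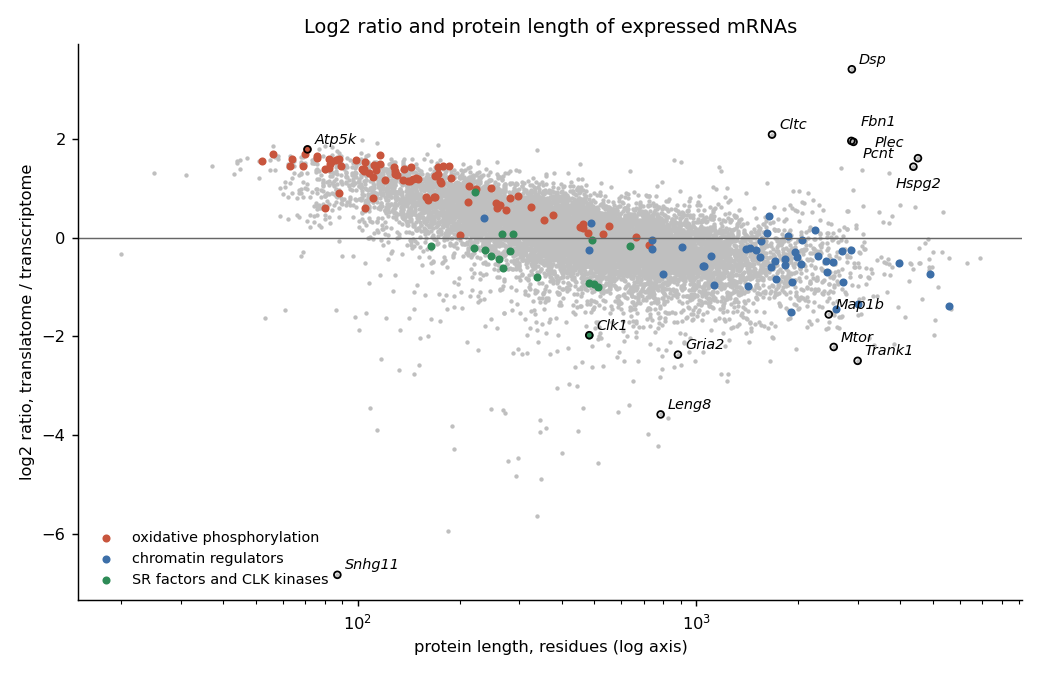
Log2 ratio of translatome over transcriptome against protein length (log axis) for 12273 expressed mRNA rows in grey, with 3 gene lists in colour and 14 named genes circled. The ratio falls with protein length (rho -0.64); Dsp, Cltc, Fbn1, Pcnt, Plec and Hspg2 stand above the long proteins and Snhg11, Leng8, Gria2 and Clk1 below the others of their length.

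The untranslated regions followed the ratio less closely than the coding sequence. Over the same 12273 rows rho was -0.20 for the length of the 3′ UTR and -0.02 for that of the 5′ UTR, and for the GC content of the coding sequence it was 0.17. For the length of the whole transcript, which includes the coding sequence, rho was -0.52. The classes of 3′ UTR length differed most among mRNAs for short proteins: in the quintile with the shortest proteins the median log2 ratio was 0.98 for the shortest quintile of 3′ UTRs (730 rows) and 0.32 for the longest (354 rows). Among the longest proteins the medians for the same 3′ UTR classes were -0.50 and -0.37, so the order was not kept. Upstream AUGs, start codons in the 5′ UTR that can engage ribosomes before the main coding sequence, differed at the other end of the range. In the quintile with the shortest proteins the median was 0.71 without an upstream AUG and 0.65 with 4 or more, whereas in the quintile with the longest proteins it was -0.51 without (973 rows) and -0.23 with 4 or more (351 rows). In each of the 3 tissue samples the mRNAs with 4 or more upstream AUGs lay above those without in the 3 quintiles with the longest proteins.

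**Figure D2:**
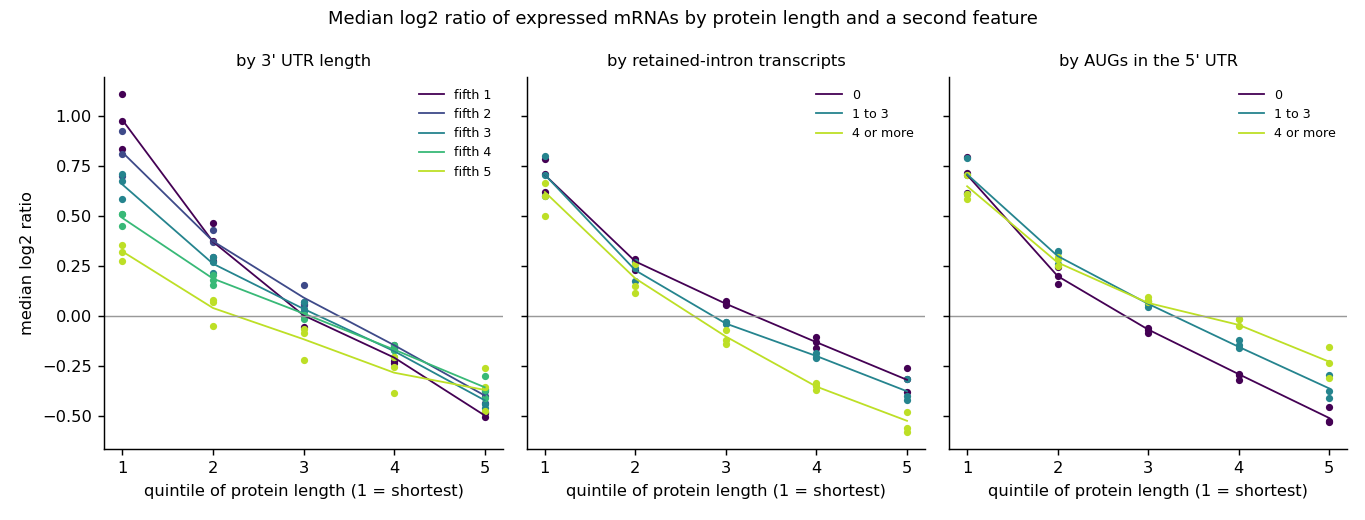
Median log2 ratio of expressed mRNAs by quintile of protein length (x axis, 1 is the shortest) and, in the 3 panels, by quintile of 3′ UTR length, by number of retained-intron transcripts annotated for the gene and by number of AUGs in the 5′ UTR. Lines are medians of the fitted ratios and points are medians in the 3 tissue samples; the 3′ UTR classes spread most at the short end (0.98 to 0.32) and the AUG classes at the long end (-0.51 to -0.23).

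Whether a protein enters the secretory pathway was approximated from stretches of hydrophobic residues in the translated coding sequence, since signal peptides and membrane helices are such stretches. The 625 mRNAs with a hydrophobic stretch only at the N-terminus, as secreted proteins have, had a median log2 ratio of 0.25, the 8085 with none 0.06 and the 3563 with an internal stretch, as membrane proteins have, -0.05. The medians of the last 2 classes were small and moved, to 0.029 for none without tissue sample 1 and to -0.079 for internal stretches without tissue sample 2, and the internal class was at 0.0001 where a hydropathy of at least 1.8 was asked for. The N-terminal class also lay above the others within each quintile of protein length, at 0.77 against 0.71 without a stretch in the shortest quintile and -0.22 against -0.40 in the longest. Its share of enriched mRNAs was 46.2%, against 36.3% and 27.4% in the others. The stretch is a prediction from sequence and was not compared with known signal peptides.

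Oxidative phosphorylation genes, which encode the subunits of the respiratory chain and the ATP synthase of mitochondria, were gained on ribosomes as a group. Of 82 tested, 72 were enriched and none was depleted, against 23.1% enriched and 22.8% depleted over all rows, and the median log2 ratio was 1.20. Atp5k (NM_007507; GRCm38 chromosome 5, 108433246 to 108434399), a small subunit of the ATP synthase, had 68.0, 81.9 and 69.8 RPKM in the transcriptome and 272, 229 and 242 RPKM in the translatome. Each translatome library was well above every transcriptome library, and the log2 ratio was 1.79 (SE 0.07, adjusted p = 3.6e-17). Ndufa1 of complex I and Uqcr11 of complex III, each under 100 residues, both had log2 ratios of 1.69. Cox4i1 of cytochrome c oxidase rose from 275, 327 and 299 to 695, 680 and 723 RPKM (log2 ratio 1.25, SE 0.06, adjusted p = 3.1e-16). By contrast, the catalytic β subunit Atp5b, which has 529 residues, overlapped between the groups, with 486, 521 and 483 RPKM against 552, 509 and 480 RPKM (log2 ratio 0.08, SE 0.05, adjusted p = 0.23). Its partner Atp5a1 reached 0.24. The core subunits Uqcrc1, Ndufv1 and Ndufs1 had log2 ratios of 0.10, 0.19 and -0.14 and did not pass the test. Relative to the median of expressed mRNAs in the same twentieth of protein length, the list still stood at 0.39, with 0.43, 0.34 and 0.36 in the 3 tissue samples.

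Mitochondrial ribosomal protein genes, which are encoded in the nucleus, translated in the cytosol and imported, behaved in the same way. Of 76 tested, 67 were enriched and none was depleted, with a median log2 ratio of 0.83 and a median of 0.29 relative to mRNAs for proteins of like length. Mrpl52, Mrpl20 and Mrpl34, the members with the highest RPKM, had log2 ratios of 1.39, 1.49 and 1.33, and Mrps30, the called member with the smallest ratio, had 0.27. Mitochondrial carriers of the Slc25 family move metabolites across the inner membrane. Of 36 over 1 RPKM, 16 were enriched and 8 depleted, against 33.9% and 30.5% over all such rows. Their median log2 ratio was 0.12, with a median of 321 residues. It did not exceed the 0.24 of quintile 2 of protein length (median 323 residues), where 46.5% of mRNAs were enriched and 13.0% depleted. Slc25a4, an ADP/ATP carrier, went from 330, 364 and 346 RPKM to 451, 428 and 476 RPKM (log2 ratio 0.41, SE 0.05, adjusted p = 2.6e-07), and Slc25a38 reached 0.94. The other solute carriers, mostly transporters of the plasma membrane, leaned to depletion, with 13 of 164 enriched and 85 depleted.

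Cytosolic ribosomal protein genes were also enriched, in 59 of 86 rows, with 5 depleted and a median log2 ratio of 0.78. Unlike the mitochondrial groups they did not stand apart from other mRNAs for short proteins, since their median relative to length was 0.01, and it was 0.04, -0.09 and 0.08 in the 3 tissue samples. Rpl8 had 677, 798 and 734 RPKM in the transcriptome and 1148, 1109 and 1178 RPKM in the translatome (log2 ratio 0.67, SE 0.06, adjusted p = 4.7e-11). Rps15 had a log2 ratio of 1.03. The 5 depleted rows, Rps18, Rpl12, Rpl10, Rpl9 and Rpl17, all had a mean under 5 RPKM, far below the abundance of other ribosomal protein mRNAs, and reads of such genes can be lost to near-identical copies, so their direction is uncertain. The same holds for Rps29, an enriched row with a log2 ratio of 1.86, at 2.93, 2.77 and 2.05 against 11.3, 7.97 and 8.38 RPKM. Of the 86 rows, 73.3% had an entry in the promoter table, too few to examine their oligopyrimidine starts, the motif through which these mRNAs are known to be regulated.

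Translation factors were found in both directions. The list of initiation and elongation factors, which by symbol also takes in Argonaute genes and eIF2 kinases, had 22 of 66 enriched and 11 depleted, with a median log2 ratio of 0.09, which was 0.018 without tissue sample 1 and 0.054 without tissue sample 3. Of the 65 over 1 RPKM the same 22 were enriched, near the share of 33.9% over all such rows, and the median relative to length was 0.02. Among the 12 subunits of eIF3, the complex that recruits the small ribosomal subunit, 7 were enriched and 4 depleted, although they act in a single complex. Eif3a, the largest at 1344 residues, fell from 102, 93.3 and 92.9 RPKM to 52.4, 44.3 and 45.1 RPKM (log2 ratio -0.996, SE 0.05, adjusted p = 5.2e-15). Eif3i, of 325 residues, rose from 86.3, 98.1 and 88.2 RPKM to 146, 136 and 136 RPKM (log2 ratio 0.65, SE 0.05, adjusted p = 7.8e-11). Eif5a and Eif1b, both small, had 0.89 and 0.90, and Eif4g2, which supports initiation without the cap-binding factor, had 0.51. The elongation factors Eef1a1 and Eef2, among the most abundant of the list, had -0.06 and -0.10 and were not called. The 4E-binding proteins, which restrain cap-dependent initiation, diverged, with Eif4ebp1 at 1.20 and Eif4ebp3 at -1.87.

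Of 39 proteasome genes 21 were enriched and 3 depleted (median log2 ratio 0.38). The barrel-shaped 20S core, made of short α and β subunits, had 14 of 15 members over 1 RPKM enriched and none depleted, with a median of 0.69, whereas the 19S regulatory particle had 7 of 20 enriched and 3 depleted, with a median of 0.14. Psma7 of the core reached 0.90, and Psmd1 and Psmd2, the large scaffolds of the 19S particle, had -1.05 and -0.56. All 8 chaperonin genes, whose products form the folding chamber for actin and tubulin, had negative log2 ratios, from -0.42 to -0.02 (median -0.18), and 3 of them, Cct8, Cct7 and Cct3, were depleted. The 7 with a matched protein length had a median of -0.07 relative to length.

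Replication-dependent histone genes had a median log2 ratio of 0.85, but 55 of the 63 rows read were not called. Their mRNAs end in a stem-loop and usually lack a poly(A) tail, and only 9 rows had a mean over 1 RPKM in these poly(A)-selected libraries. Relative to mRNAs for proteins of like length these 9 rows had a median of -0.12. Of the 8 called, 7 were enriched. Hist3h2ba had 100, 106 and 107 RPKM against 290, 252 and 266 RPKM (log2 ratio 1.40, SE 0.06, adjusted p = 3.3e-17). The exception was Hist2h2be, at -0.27, whose groups overlapped.

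Among single mRNAs with a mean of at least 5 RPKM, those with the largest enrichment were mostly short. Sepw1 (NM_009156; chromosome 7, 15917208 to 15922371), which encodes a selenoprotein of 88 residues, had 336, 427 and 387 RPKM in the transcriptome and 1293, 1155 and 1216 RPKM in the translatome. The groups lay far apart, and the log2 ratio was 1.71 (SE 0.07, adjusted p = 1.9e-17). Rps27l, Crip1, Bst2, S100a13, Ndufa4l2 and Gm561, all under 200 residues, had log2 ratios between 1.67 and 1.88. The long mRNAs of Cltc, Fbn1 and Pcnt, described below, had larger ratios (2.08, 1.96 and 1.94).

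**Figure D3:**
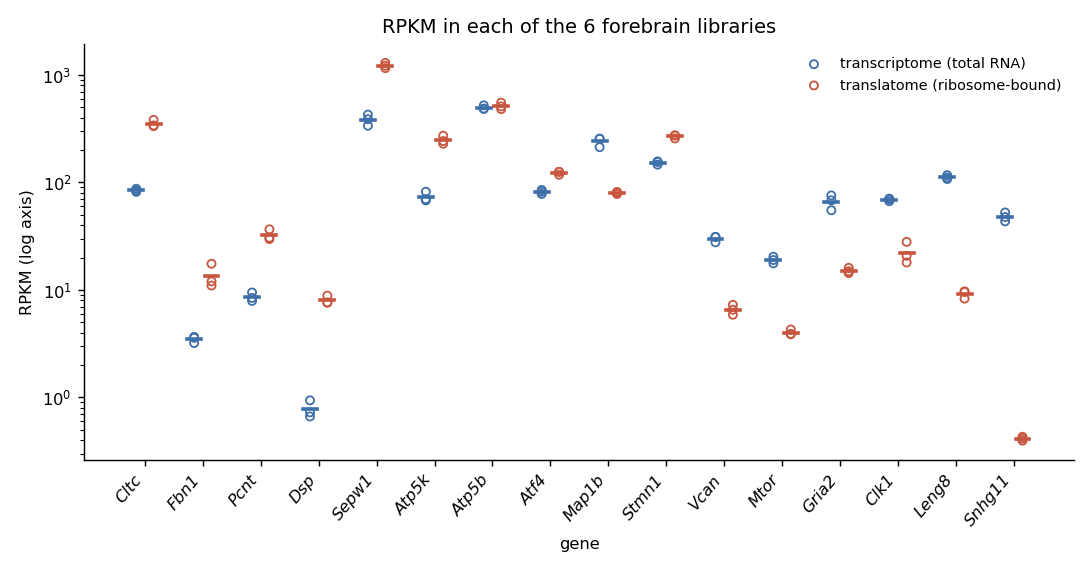
RPKM (log axis) of 16 genes in the 3 transcriptome libraries (blue circles) and the 3 translatome libraries (red circles), with bars at the means. Apart from Atp5b, whose libraries overlap, the groups of each gene shown are separate; Cltc, Fbn1, Pcnt, Dsp, Sepw1, Atp5k, Atf4 and Stmn1 are higher in the translatome and the others lower.

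A few mRNAs for very long proteins went against the trend. Of the 301 mRNAs for proteins of 2000 residues or more, 32 were enriched and 8 of these exceeded 2-fold: Dsp, Fbn1, Pcnt, Plec, Hspg2, Col6a3, Lama1 and Lama5. Fbn1 (NM_007993; chromosome 2, 125300594 to 125506485), the fibrillin of extracellular microfibrils, had 3.59, 3.20 and 3.66 RPKM in the transcriptome and 17.5, 12.0 and 11.0 RPKM in the translatome (log2 ratio 1.96, SE 0.08, adjusted p = 4.0e-17). Pcnt (NM_008787; chromosome 10, 76351254 to 76442912), the pericentrin scaffold of the centrosome, rose from 9.46, 7.90 and 8.43 RPKM to 36.6, 30.6 and 29.7 RPKM (log2 ratio 1.94, SE 0.05, adjusted p = 1.4e-20). In both genes every translatome library exceeded every transcriptome library by more than 2-fold. Plec and Dsp encode plakins that link intermediate filaments to junctions. Their log2 ratios were 1.61 and 3.41, and Dsp was at 0.727, 0.666 and 0.939 RPKM in total RNA and 7.61, 7.63 and 8.84 RPKM on ribosomes. Hspg2, Lama1, Lama5 and Col6a3 encode perlecan, 2 laminin α chains and a collagen VI chain, all secreted into basement membranes or matrix, and had log2 ratios of 1.43, 1.37, 1.30 and 1.41. Cltc, the clathrin heavy chain of 1675 residues, had 87.3, 81.6 and 84.2 against 382, 338 and 334 RPKM, a log2 ratio of 2.08 (SE 0.05, adjusted p = 2.4e-21).

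At the other end, Trank1, Mtor, Vcan, Trrap and Golgb1 were the long mRNAs with the strongest depletion, with log2 ratios from -2.49 to -2.02. Mtor (NM_020009; chromosome 4, 148448582 to 148557685), the kinase that sets protein synthesis to nutrient supply, had 20.3, 17.7 and 19.0 RPKM in total RNA and 4.29, 3.86 and 3.90 RPKM on ribosomes (log2 ratio -2.21, SE 0.06, adjusted p = 2.4e-21). Vcan, the proteoglycan versican, had 31.1, 27.7 and 31.1 RPKM against 7.26, 6.54 and 5.88 RPKM (log2 ratio -2.17, SE 0.06, adjusted p = 2.4e-20). The transcriptome libraries of both genes were all more than 3-fold above the translatome libraries. Son and Srrm2, scaffolds of nuclear speckles, had -1.83 and -1.80, and Rif1 and Atr, which act in replication timing and the DNA damage response, had -1.86 and -1.83.

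Extracellular matrix genes held some of the largest gains and losses together. Of 82 tested, 16 were enriched and 35 depleted, with a median log2 ratio of -0.22 (-0.34 without tissue sample 2). Collagens leaned to depletion, with 16 of 27 over 1 RPKM depleted and 3 enriched: Col11a2, Col2a1, Col4a1 and Col4a2 had -2.49, -1.75, -1.07 and -0.84. The 4 laminin α chains were all enriched, with a median of 0.97, whereas of the 4 β and γ chains 1 was enriched and 2 were depleted, among them Lamb1 at -0.44 and Lamc1 at -0.31, although these chains are secreted as trimers with an α chain. The nidogens Nid1 and Nid2, which bridge laminin and collagen IV, had 0.39 and 0.90, and Reln, the glycoprotein that Cajal-Retzius cells release to guide cortical layering, had 0.52. The brain proteoglycans Ncan and Bcan and the matrix glycoprotein Tnc had -0.59, -1.13 and -1.25. The matrix list stood at 0.12 relative to mRNAs for proteins of like length.

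**Figure D4:**
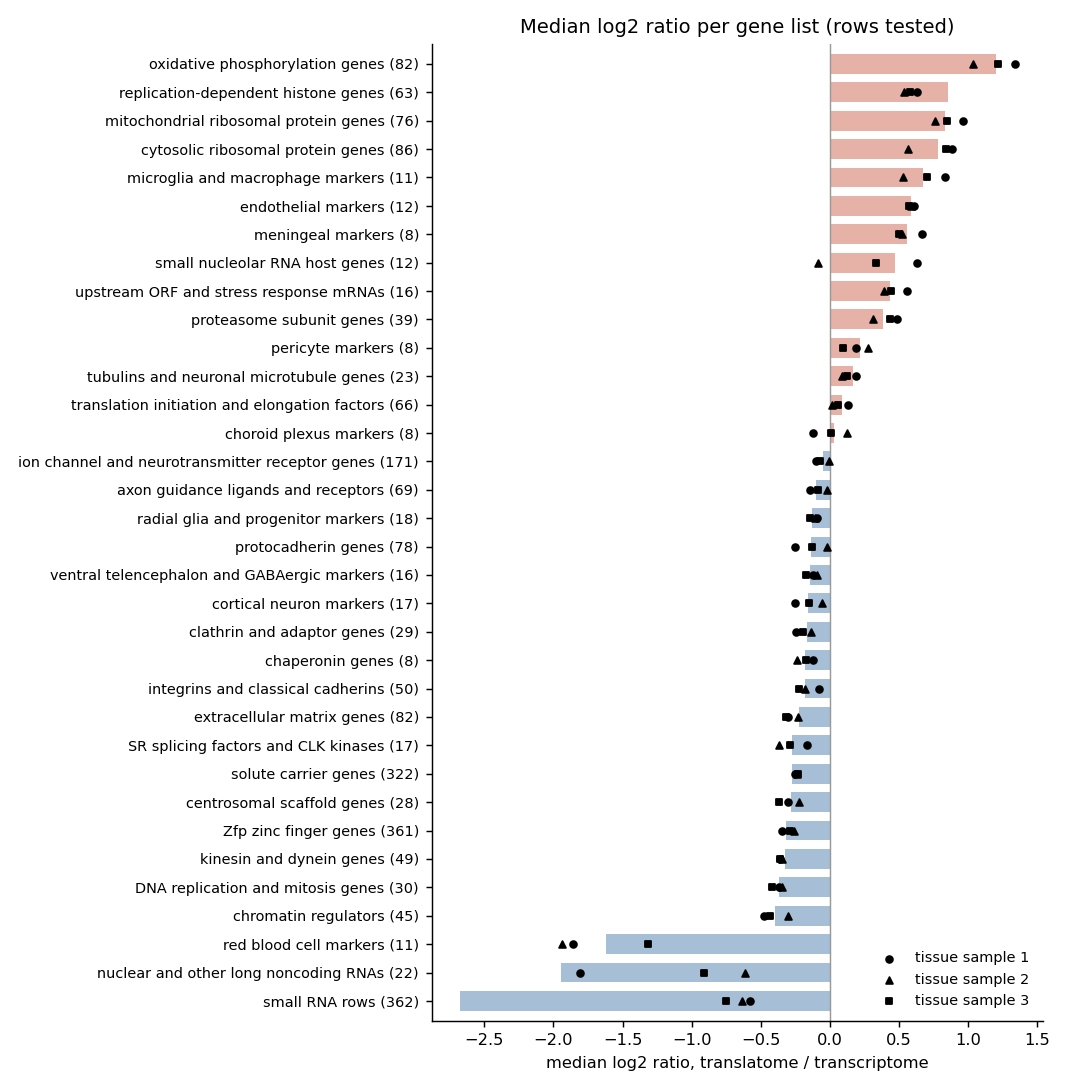
Median log2 ratio of translatome over transcriptome (x axis) for 34 gene lists, with the number of rows tested in brackets; bars are medians of the fitted ratios and the 3 symbols are medians in the 3 tissue samples. The sample ratios are computed with a prior count of 2, and in the small RNA, long noncoding and histone lists they lie closer to 0 than the bars; oxidative phosphorylation genes lie highest (1.20) and small RNA rows lowest (-2.68).

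Genes of the nucleus were lost from ribosomes in several groups. Of 361 Zfp zinc finger genes, a large family of DNA-binding repressors, 169 were depleted and 32 enriched (median log2 ratio -0.32). Zfp57, which protects imprinted loci from demethylation, fell from 127, 140 and 144 RPKM to 39.3, 39.9 and 37.5 RPKM (log2 ratio -2.23, SE 0.06, adjusted p = 2.4e-21). The ratio of Zfp57, fitted to read counts, is larger in size than the fall in its mean RPKM, and the cause was not tested. Zfp692 had -2.60. Zfp428 and Zfp575, which encode short members of 176 and 239 residues, went up, both with 1.12. Relative to mRNAs for proteins of like length the Zfp list stood at -0.18, with -0.21, -0.18 and -0.18 in the 3 tissue samples.

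Chromatin regulators had 32 of 45 depleted and 3 enriched, with a median log2 ratio of -0.40. Smarcc2, a core subunit of the BAF remodelling complex, had 182, 167 and 175 RPKM against 97.5, 90.1 and 81.2 RPKM (log2 ratio -0.95, SE 0.05, adjusted p = 3.2e-14), and Tet2, Chd8 and Chd4 had -1.51, -1.44 and -0.90. The ATPase Smarca4 of the same complex was not called, at 0.09, and Hdac2, Smarca2 and Kdm6b were the 3 enriched, at 0.30, 0.40 and 0.43 (Hdac2 had 0.17 without tissue sample 1). Because these proteins are long, with a median of 1772 residues, the list stood at only 0.03 relative to mRNAs for proteins of like length. DNA replication and mitosis genes had 22 of 30 depleted and none enriched (median -0.37), and they kept a median of -0.28 relative to length. Cenpf, Kif20b and Kif11, which act on kinetochores and the spindle, had -1.56, -1.36 and -1.07, Top2a and Mki67, both markers of dividing cells, had -0.79 and -0.61, and Ccnd2, the cyclin of radial glia, had -0.29, or -0.19 without tissue sample 1.

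SR splicing factors, which bind exons and recruit the spliceosome, and the CLK kinases that phosphorylate them had 11 of 17 depleted and 1 enriched. Their median log2 ratio was -0.27, and relative to mRNAs for proteins of like length it was -0.79, with -0.71, -0.78 and -0.78 in the 3 tissue samples. Clk1 (chromosome 1, 58411988 to 58424088) had 69.7, 66.8 and 70.6 RPKM in total RNA and 28.0, 18.0 and 20.8 RPKM on ribosomes (log2 ratio -1.97, SE 0.07, adjusted p = 4.7e-18). Its ratio, fitted to read counts, is larger in size than the fall in its mean RPKM. Clk2 and Clk4 had -0.94 and -0.92, and Srsf11 and Srsf6 had -1.001 and -0.80. Srsf9 alone went up, from 64.3, 73.7 and 70.1 RPKM to 130, 130 and 127 RPKM (log2 ratio 0.92, SE 0.05, adjusted p = 3.7e-14). Some transcripts of Clk1 and of SR factors are known to keep introns and to stay in the nucleus, and the part of such transcripts in these values was not tested.

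Genes with annotated retained-intron transcripts lay lower as a class. Over the expressed mRNAs the median log2 ratio was 0.16 for the 4972 rows whose gene has no such transcript in GENCODE, 0.01 for the 5662 with 1 to 3 and -0.28 for the 1639 with 4 or more. Depletion of more than 2-fold was called in 3.58%, 5.51% and 13.7% of these classes. Genes with more such transcripts also encode longer proteins (medians of 398, 477 and 667 residues), and within quintiles of protein length the classes with none and with 4 or more were at 0.71 and 0.62 in the shortest quintile, 0.06 and -0.10 in the middle and -0.32 and -0.53 in the longest. The class with 4 or more lay lower in every quintile and in all 3 tissue samples. The annotation counts known transcripts of a gene and does not show which of them these libraries held.

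Some mRNA rows were lost far more strongly than the groups above. Snhg11 (NM_175692), a host gene of small nucleolar RNAs that is annotated with a coding sequence of 87 residues, had 47.6, 43.4 and 52.5 RPKM in total RNA and 0.414, 0.396 and 0.430 RPKM on ribosomes (log2 ratio -6.82, SE 0.08, adjusted p = 3.9e-29). Ncrna00085, whose symbol also marks it as noncoding, had -5.64. Among genes with well-known proteins, Leng8 (NM_172736; chromosome 7, 4137013 to 4148177) fell from 117, 107 and 111 RPKM to 9.70, 9.57 and 8.30 RPKM (log2 ratio -3.58, SE 0.06, adjusted p = 9.0e-25). Wsb1, a substrate receptor of a ubiquitin ligase, fell from 180, 187 and 174 RPKM to 24.3, 22.4 and 24.6 RPKM (log2 ratio -2.96, SE 0.06, adjusted p = 2.0e-23). In all 3 the most abundant translatome library stayed far below the least abundant transcriptome library. Lime1, Dmpk, Pfkp and Ttc14 had log2 ratios of -3.48, -3.39, -2.83 and -2.62. Ogt, the only enzyme that adds O-linked GlcNAc to nuclear and cytosolic proteins, had 113, 110 and 115 RPKM against 20.0, 20.4 and 27.5 RPKM (log2 ratio -2.30, SE 0.07, adjusted p = 4.4e-20), and Luc7l3, a splicing factor, had -2.19.

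Genes whose mRNAs carry upstream reading frames, or are otherwise translated under stress, went the other way as a small list. Of 16 tested, 9 were enriched and 1 was depleted, with a median log2 ratio of 0.44 and of 0.37 relative to mRNAs for proteins of like length. Atf4, the transcription factor of the integrated stress response, rose from 78.0, 85.1 and 81.8 RPKM to 125, 118 and 125 RPKM (log2 ratio 0.62, SE 0.05, adjusted p = 7.8e-11). Every translatome library was above every transcriptome library. Atf5 and Ddit3, which act in the same response, had 0.75 and 0.44 (Ddit3 had 0.26 without tissue sample 1), and Ppp1r15a, which recruits the eIF2 phosphatase, had 0.43. Azin1 and Odc1, of polyamine synthesis, had 0.37 and 0.52, although the Odc1 libraries overlapped between the groups. Eprs, a tRNA synthetase of 1512 residues, was the depleted member, at -0.47.

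Ion channel and neurotransmitter receptor genes had 24 of 171 enriched and 41 depleted (14.0% and 24.0%, against 23.1% and 22.8% over all rows tested). Their median log2 ratio was -0.05, and it was -0.12 without tissue sample 2 and -0.091 without tissue sample 3. Relative to mRNAs for proteins of like length it was 0.06, with -0.01, 0.10 and 0.07 in the 3 tissue samples. The pore-forming subunits of sodium and calcium channels, which hold the voltage sensors and the ion path in a single long chain, had 11 of 12 depleted and none enriched, with a median of -0.89. Scn3a, the sodium channel of the embryonic brain, fell from 16.5, 13.2 and 15.8 RPKM to 5.63, 5.87 and 5.93 RPKM (log2 ratio -1.35, SE 0.06, adjusted p = 3.7e-16), and Cacna1h had -1.40. Auxiliary subunits, which set trafficking and gating of these pores, were of both kinds: of 13 β and γ subunits 5 were enriched and 1 was depleted (median 0.13), and of 3 α2δ subunits of calcium channels none was enriched and 2 were depleted (median -0.82). The 4 Kv channel-interacting proteins, small calcium-binding partners of potassium channels, were all enriched, with a median of 0.59.

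Among ionotropic glutamate receptors none of 13 was enriched and 6 were depleted. Gria2, the AMPA receptor subunit that makes the channel impermeable to calcium, had 75.7, 55.1 and 68.2 RPKM in total RNA and 14.4, 14.9 and 16.0 RPKM on ribosomes (log2 ratio -2.37, SE 0.06, adjusted p = 2.4e-21). Its ratio, fitted to read counts, is larger in size than the fall in its mean RPKM. The other AMPA subunits, which have nearly the same length, differed far less: Gria1 had -0.16 and was not called, Gria3 had -0.47 and Gria4 -0.31. GABA-A receptor subunits had 1 of 10 enriched and 1 depleted, and Gabra5 and the glycine receptor subunit Glra2 had 0.59 and 0.61.

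Axon guidance genes had 12 of 69 enriched and 23 depleted (median log2 ratio -0.10, or -0.19 without tissue sample 2 and -0.16 without tissue sample 3). Relative to mRNAs for proteins of like length their median was 0.18, with 0.15, 0.22 and 0.19 in the 3 tissue samples. Of the 8 ephrins, short membrane-anchored ligands, 6 were enriched and none was depleted, with a median of 0.63, whereas 6 of their 11 Eph receptors were depleted and none was enriched, with a median of -0.32. Efna3 had 14.8, 14.0 and 15.8 RPKM against 31.6, 29.6 and 32.5 RPKM (log2 ratio 1.10, SE 0.06, adjusted p = 3.4e-14), and its receptors Epha4 and Epha5 had -0.69 and -0.49. Of 8 plexins, the receptors for semaphorins, 5 were depleted, led by Plxna3 at -1.46, and of 18 semaphorins, their ligands, 3 were enriched and 7 depleted, with medians on the same side of 0 (-0.38 and -0.08). Robo3, which lets commissural axons cross the midline, had -1.94, while Robo1 had 0.21 and was not called. The Slit ligand Slit1, of 1531 residues, had -0.76.

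Most cell adhesion genes were not called. Integrins and classical cadherins had 6 of 50 enriched and 12 depleted (12.0% and 24.0%, against 23.1% and 22.8% over all rows tested). Their median log2 ratio was -0.18, or -0.10 for members over 1 RPKM, and 0.20 relative to mRNAs for proteins of like length. Protocadherins with the Fat and Celsr families had 1 of 78 enriched and 10 depleted (median -0.13, or -0.21 without tissue sample 2). Relative to length their median was 0.19. Cdh2, the N-cadherin of the ventricular zone, overlapped between the groups at -0.07, and Itgb1, the β1 integrin chain, had -0.40. The very long Fat4, Dchs1 and Celsr3, which act in planar cell polarity, had -0.59, -0.63 and -0.72, and Pcdhgc3 alone was enriched, at 0.34. Solute carriers as a whole had 30 of 322 enriched and 108 depleted (median -0.27). Slc18a2, the vesicular monoamine transporter, had -1.81, the chloride cotransporters Slc12a2 and Slc12a5 had -1.02 and -0.91, and the vesicular glutamate transporters Slc17a6 and Slc17a7 had -0.38 and 0.37.

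**Figure D5:**
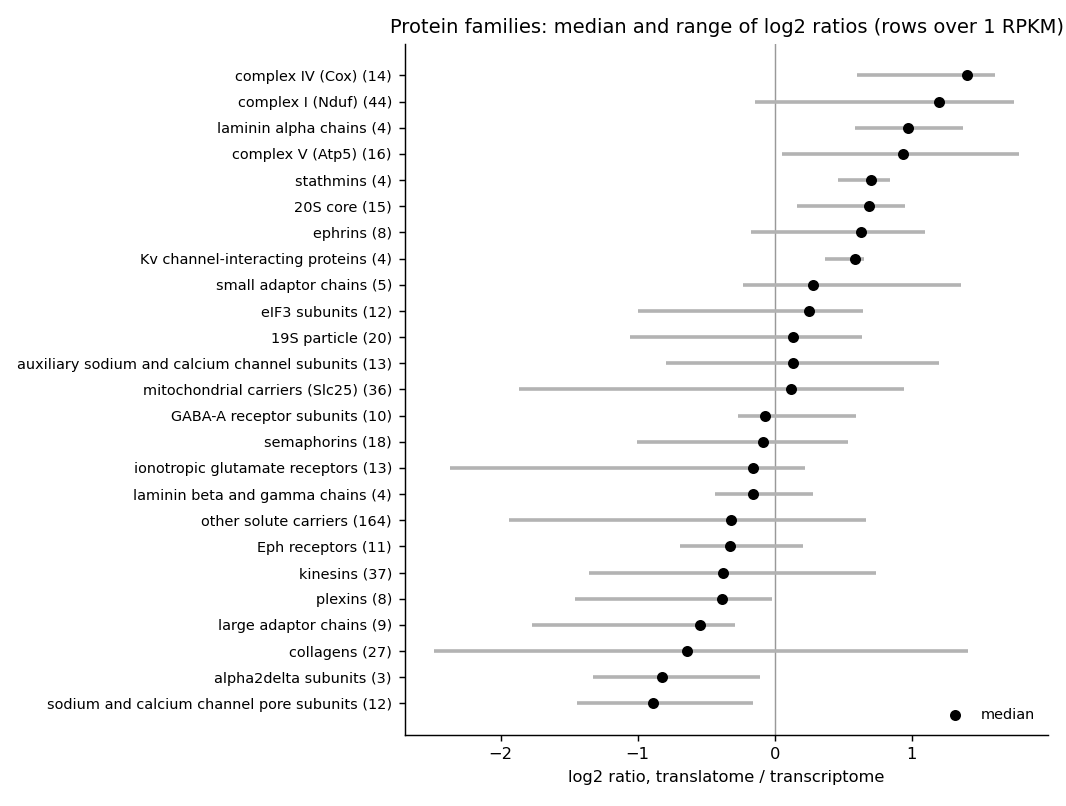
Log2 ratio of translatome over transcriptome (x axis) in 25 protein families, grouped after the values were seen; points are medians, grey lines run from the lowest to the highest member and the number of rows over 1 RPKM is in brackets. Some partners lie on different sides of 0, as with ephrins (0.63) and Eph receptors (-0.32), laminin α chains (0.97) and β and γ chains (-0.16) and small (0.28) and large (-0.54) adaptor chains, and others on the same side, as with the 20S core (0.69) and 19S particle (0.14) and with semaphorins (-0.08) and plexins (-0.38).

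The coat of endocytic vesicles held members of both directions. Clathrin and adaptor genes had 8 of 29 enriched and 12 depleted (median log2 ratio -0.17). All 9 large chains of the adaptor complexes, which select cargo for clathrin vesicles, were depleted (median -0.54), among them Ap1b1 at -1.17, Ap2b1 at -0.79 and Ap2a1 at -0.62. Of the 5 small chains, 3 were enriched and none was depleted. Ap2s1, the small chain of the plasma membrane adaptor, had 126, 145.5 and 141 RPKM against 341, 345 and 347 RPKM (log2 ratio 1.36, SE 0.05, adjusted p = 1.8e-17). The clathrin light chains Clta and Cltb had 0.72 and 0.99.

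Among cytoskeletal genes, the short stathmins rose and several large microtubule-binding proteins fell. Tubulins and neuronal microtubule genes had 9 of 23 enriched and 4 depleted (median log2 ratio 0.16, or 0.068 without tissue sample 1). The 4 stathmins, which bind tubulin dimers and destabilise microtubules, were all enriched (median 0.70), and Stmn1 rose from 146, 157 and 155 RPKM to 273, 256 and 274 RPKM (log2 ratio 0.84, SE 0.05, adjusted p = 1.8e-13). Map1b, an early axonal microtubule-associated protein of 2464 residues, fell from 255, 213 and 254 RPKM to 78.0, 81.4 and 80.8 RPKM (log2 ratio -1.55, SE 0.06, adjusted p = 4.7e-18). The groups of both genes were separate. Map1a, Map4 and Map2 had -1.34, -1.09 and -0.66, whereas the neuronal tubulin Tubb3 had 0.28 and the tau gene Mapt 0.21 with overlapping libraries. Tubulin genes share long stretches of sequence, so their values are uncertain.

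Kinesin and dynein genes had 6 of 49 enriched and 26 depleted (median log2 ratio -0.33), and stood at -0.00 relative to mRNAs for proteins of like length. The dynein heavy chain Dync1h1, of 4644 residues, had -1.24, and the dynein light chains Dynll1 and Dynll2, both of 89 residues, had 1.27 and 0.79. Kif5a, a motor of axonal transport, had -0.61, and its relative Kif5c overlapped between the groups at -0.02. Centrosomal scaffolds had 5 of 28 enriched and 15 depleted (median -0.28, or 0.11 relative to length). Besides Pcnt, Akap9, which anchors at the same sites, was enriched at 0.43 in spite of its 3779 residues, and Cep19, of 163 residues, at 0.95. Crocc, the rootletin of the ciliary base, had 0.95. Pcm1, Cep290 and Cep152 were depleted, at -0.46, -0.70 and -1.13.

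Markers of the forebrain's own cells were divided without a common direction. Radial glia and progenitor markers had 4 of 18 enriched and 7 depleted (median log2 ratio -0.13). Fabp7, the brain lipid-binding protein of radial glia, rose from 508, 571 and 534 RPKM to 953, 837 and 922 RPKM (log2 ratio 0.78, SE 0.06, adjusted p = 6.9e-12). Ptprz1, a receptor phosphatase of the same cells, fell from 53.4, 48.9 and 55.1 RPKM to 20.4, 20.0 and 18.9 RPKM (log2 ratio -1.38, SE 0.06, adjusted p = 3.9e-17), and Notch1, which keeps progenitors undifferentiated, had -1.33. Both markers had separate groups, in opposite directions. Sox2, Pax6 and Vim were not called, at 0.17, -0.09 and 0.08. Cortical neuron markers had 5 of 17 enriched and 5 depleted: Gap43, of growth cones, had 0.81, Neurod6 and Tbr1 0.23 and 0.22, and Cntn2 and Sox5 -0.56 and -0.55.

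Ventral telencephalon and GABAergic markers had 3 of 16 enriched and 4 depleted (median log2 ratio -0.15). The enzymes of GABA synthesis were the members with the strongest loss. Gad2 fell from 35.8, 34.7 and 35.2 RPKM to 16.3, 17.5 and 16.9 RPKM (log2 ratio -1.03, SE 0.05, adjusted p = 1.8e-15), and Gad1 had -0.75. Among the homeobox genes that specify these neurons, Dlx5 and Dlx6 were enriched at 0.31 and 0.41 and Dlx1 was depleted at -0.26. The library kit does not mark strand, so reads of Dlx1 cannot be told apart from those of the overlapping Dlx1as. The same limit may hold for Dlx6 and its opposite-strand RNA Dlx6os1.

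Vessel, microglia and meningeal markers were enriched more often than depleted. Of 12 endothelial markers 9 were enriched and 1 was depleted, and their summed level was 146 to 184 RPKM in the transcriptome and 235 to 265 RPKM in the translatome. Cldn5, a tight junction protein of brain vessels, had 31.1, 44.8 and 34.3 RPKM against 60.6, 74.7 and 69.6 RPKM (log2 ratio 0.93, SE 0.06, adjusted p = 2.0e-13), and Kdr, the VEGF receptor of 1345 residues, had -0.31. Of 11 microglia and macrophage markers 7 were enriched and 1 was depleted, with sums of 37.3 to 48.8 and 79.5 to 88.3 RPKM. Tyrobp, a short signalling adaptor of microglia, had 4.78, 7.16 and 6.11 RPKM against 21.7, 23.7 and 21.4 RPKM (log2 ratio 1.92, SE 0.10, adjusted p = 1.7e-15), but the defining receptors Csf1r and Cx3cr1 overlapped between the groups at -0.05 and -0.10. Pericyte markers had 4 of 8 enriched and 1 depleted (sums of 69.2 to 77.5 and 83.7 to 97.2 RPKM), and meningeal markers 5 of 8 enriched and 1 depleted (121 to 136 and 125 to 144 RPKM). Choroid plexus markers had 2 of 8 enriched and 2 depleted, and the abundant Ttr, a thyroid hormone carrier, had 0.77. Relative to mRNAs for proteins of like length, the endothelial, pericyte, meningeal and microglia lists stood at 0.56, 0.50, 0.56 and 0.34 and the choroid plexus list at -0.45. Whether the tag was expressed at the same level in every cell type was not tested.

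Red blood cell markers were lost, with 8 of 11 depleted and none enriched (median log2 ratio -1.62). Only 5 of the rows had a mean over 1 RPKM, and these 5 were all depleted. Of the 8 depleted rows, 4 had a mean under 5 RPKM. The summed level of the markers was 485 to 923 RPKM in the transcriptome and 156 to 247 RPKM in the translatome. Alas2, which starts haem synthesis in erythroid cells, had 11.7, 17.2 and 8.52 RPKM in total RNA and 1.07, 1.42 and 0.703 RPKM on ribosomes (log2 ratio -3.52, SE 0.09, adjusted p = 9.6e-21). Slc4a1, the anion exchanger of the red cell membrane, had -3.77. Hbb-y, an embryonic globin, had 358, 316 and 141 RPKM against 174, 109 and 82.0 RPKM, so that its groups overlapped although the paired log2 ratio was -1.10 (SE 0.08, adjusted p = 4.9e-12). Globin genes share sequence and their values are uncertain. The total RNA of tissue sample 3 held the least of several red cell mRNAs.

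Noncoding rows were depleted more often than enriched, with 187 of 511 over 1 RPKM depleted and 141 enriched. Over all rows of that level, 30.5% were depleted and 33.9% enriched. Of all 1955 noncoding rows tested, 287 were depleted and 160 enriched, against 22.8% and 23.1% over all rows tested. The small RNA rows were chosen by symbol as loci of microRNAs, small nucleolar RNAs and other small RNAs. Of 362 tested, 70 were depleted (19.3%, against 22.8% over all rows tested) and 1 was enriched. Only 109 of them had a mean over 1 RPKM, of which 67 were depleted, against 30.5% over all rows of that level. Their median log2 ratio of -2.68 was -4.83 for the members over 1 RPKM and -1.63 with DESeq2. The libraries were poly(A)-selected, so reads on these rows need not come from the mature small RNAs, and their source was not tested. Of the 22 long noncoding RNAs listed, 12 were depleted and 2 enriched, with a median log2 ratio of -1.95. That median was -1.11 without tissue sample 1 and -1.11 with DESeq2, and the 3 tissue samples taken singly had -1.81, -0.61 and -0.91. A930011O12Rik (NR_040709; chromosome 14, 64588115 to 64593961) had 106, 94.1 and 94.8 RPKM in total RNA and 0.532, 0.736 and 0.418 RPKM on ribosomes (log2 ratio -7.44, SE 0.10, adjusted p = 1.0e-27). Mir17hg, the primary transcript of the miR-17 cluster, had -6.01. Meg3, Rian and Mirg, maternally expressed RNAs of an imprinted cluster, had -6.47, -3.36 and -5.12, and H19, which is imprinted too but mostly cytoplasmic, had -2.45. All of them were lower in every translatome library than in every transcriptome library.

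Other long noncoding RNAs stayed with the ribosomes. Peg13 (NR_002864; chromosome 15, 72805602 to 72810324), a paternally expressed imprinted RNA, had 70.9, 70.1 and 73.4 RPKM in total RNA and 105, 115 and 120 RPKM on ribosomes (log2 ratio 0.70, SE 0.05, adjusted p = 7.9e-12). Dlx1as, antisense to Dlx1, had 0.42, although the library kit does not mark strand and reads from the overlapping Dlx1 cannot be told apart. Sox2ot, an RNA that overlaps Sox2, had -0.03 and was not called. Small nucleolar RNA host genes split, with 5 of 12 enriched and 2 depleted: Snhg1 and Snhg6 both had 0.79, Gas5 -0.19 without passing the test, and Snhg7 -1.91. Of the rows with only noncoding accessions, the 10 with the largest enrichment were Rn45s, the ribosomal RNA precursor (2.82; its many near-identical copies make it uncertain), BC002163, which had 10.0 and 29.5 RPKM in the libraries of tissue sample 1 but at most 1.62 RPKM in the others, and 8 loci with names of cDNA clones, with log2 ratios from 1.30 to 1.59.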

How the data were processed

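Ribosome-bound RNA and total RNA of 3 forebrain tissue samples at E14.5 were sequenced from poly(A)-selected TruSeq libraries. Total RNA came from the cleared homogenate of the purification. The authors aligned reads to GRCm38 with RUM and deposited, for each RefSeq row, the read count and the RPKM from rpkmforgenes. The deposited counts were tested with edgeR 4.0.16 (quasi-likelihood, TMM factors, R 4.3.3) over the 19446 rows with at least 1 count. The replicate number was a block, p-values were Benjamini-Hochberg adjusted, and rows were called at an adjusted p under 0.001. The deposited RPKM values served for levels and for the limit of 1 RPKM. The numbers pair the libraries because the study lists the same tissue sample for both. Deviations of same-numbered libraries from their group means correlated at 0.62, 0.48 and 0.72 over 11604 rows. Counts differed between all libraries, and each number is a separate pool of embryos, so 3 pairs carry the spread.

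Protein length, UTRs, upstream AUGs and retained-intron transcripts came from GENCODE vM21 (GRCm38), matched for 20621 of 20917 mRNA rows. This departs from the plan, which took proteins from a RefSeq table that was not used here. Gene coordinates are those of RefSeq on GRCm38.p6. A hydrophobic stretch is a window of 19 residues with a mean hydropathy of at least 1.6, N-terminal where it starts within the first 20. The ratio relative to length is a row's log2 ratio minus the median of expressed mRNAs in its twentieth of protein length. Ratios per tissue sample use a prior count of 2.

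Genes, 34 lists and families were chosen with earlier results of these data known, so lists are described by counts and medians and no set test was run. Genes were named by rule: Rpl10a; in each list up to 3 members with the highest mean RPKM and the called members with the largest and smallest ratio; and the 15 largest and 15 smallest ratios among called mRNA rows of at least 5 RPKM with the same sign in all pairs (10 and 10 for noncoding rows). Other named genes were chosen after their values were seen. The fit was run on simulated data in which far fewer rows changed than were called here. That run therefore does not bear on the number of rows called. Alternatives were no block, DESeq2 1.42.0, other scaling, a count filter, an adjusted p under 0.05 and leaving out each tissue sample. Counting strand is not given in the sources used here, and 392 rows repeat a symbol and accession.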

Additional observations from a re-analysis of the deposited data

How the results depend on the processing

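The counts of enriched and depleted rows stayed within 1.5 times of 4500 and 4433 under each alternative run: 3625 and 3596 without the replicate block, 3715 and 3907 with DESeq2, 4388 and 4604 with relative log expression factors, 4327 and 4620 with total counts, 4332 and 4663 with TMM factors from mRNA rows, 4084 and 4259 with at least 10 counts in 3 libraries, and 5834 and 5821 at an adjusted p under 0.05. Leaving out each tissue sample gave 3461 to 4350 enriched and 3811 to 4782 depleted rows. Without the block the pairing is lost, and 17 of the 210 rows of genes the text names were no longer called, against 18 without replicate 3 and 6 with DESeq2. Without replicate 1, the uncalled ratios of Atp5b and Rpl10a turned to -0.024 and -0.10. In the same-lane pair alone, a value with no test, 129 of these 210 rows stayed within the spread between pairs and 81 moved beyond it, and no called value changed sign.

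Some medians moved beyond the spread between pairs; the cause was not tested. With DESeq2 small RNA rows had -1.63, long noncoding RNAs -1.11, solute carriers -0.29, kinesins and dyneins -0.34 and endothelial markers 0.57. With total counts the last 3 lists had -0.30, -0.35 and 0.57, and without the replicate block histone genes had 0.92. With members over 1 RPKM, small RNA rows had -4.83, integrins and cadherins -0.10, solute carriers -0.25, radial glia markers -0.091 and microglia markers 0.86. Over 5 RPKM quintile 4 of protein length had -0.18, quintile 3 of 3′ UTR length 0.072 and mRNAs without a hydrophobic stretch 0.086. With a hydropathy of at least 1.8 the last class had 0.041 and the class with an internal stretch turned to 0.0001. Leaving out each tissue sample in turn gave these ranges of the median: small RNA rows -3.07 to -2.94, long noncoding RNAs -2.02 to -1.11, histones 0.77 to 0.94, translation factors 0.018 to 0.086, chaperonins -0.24 to -0.17, chromatin regulators -0.50 to -0.41, replication and mitosis -0.42 to -0.39, upstream reading frames and stress 0.35 to 0.47, matrix -0.34 to -0.27, guidance -0.19 to -0.11, channels -0.12 to -0.047, solute carriers -0.31 to -0.28, clathrin and adaptors -0.23 to -0.18, tubulins 0.068 to 0.16, kinesins and dyneins -0.39 to -0.36, radial glia -0.18 to -0.16, endothelial 0.54 to 0.57 and red blood cells -1.99 to -1.82. For protein length they were 0.19 to 0.25, -0.040 to -0.0084 and -0.23 to -0.22 in quintiles 2 to 4, for 3′ UTR length 0.14 to 0.22, 0.10 to 0.16, 0.017 to 0.049 and -0.021 to -0.0059 in quintiles 1 to 4, and for hydrophobic stretches 0.029 to 0.044 (none), 0.20 to 0.24 (N-terminal) and -0.079 to -0.068 (internal). The oligopyrimidine check and its wider window were void, since 73.3% of ribosomal protein rows and 79.6% of expressed mRNA rows had a promoter entry.

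RPKM carries no scale for total RNA, so a ratio shows a row's share on ribosomes against its share of total RNA, not how many ribosomes sit on it. Small RNA and histone rows are thinly read, with 109 of 362 and 9 of 63 over 1 RPKM.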
